A study of Mus musculus with 12 samples.

Results

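The mitosis and G2/M genes described here are 50 genes, many of whose products condense, attach and separate chromosomes and divide the cell. They were taken by symbol from a fixed list, and all 50 were found among the 45563 gene symbols measured and were among the 18081 tested. RNA was sequenced from cultured oligodendrocyte precursor cells (OPCs), the dividing progenitors of the myelinating cells of the brain. The OPCs were isolated with anti-PDGFRα beads from cortices of C57BL/6 pups aged postnatal day 2 to 5 by the labels, WT or germline TNFR2-/- (lacking the TNF receptor encoded by *Tnfrsf1b*), and all groups were kept for 3 days in medium with the mitogens PDGF-AA and FGF2. Non-stimulated (NS) OPCs received vehicle, and stimulated (St) OPCs received TNF, IFNγ and IL1β at 25 ng/mL each for 3 h. The 12 libraries form 4 groups of 3, WT NS, WT St, TNFR2-/- NS and TNFR2-/- St, with replicates numbered 2, 3 and 4 in WT and 2, 4 and 5 in TNFR2-/-. Within a genotype NS and St libraries of the same number deviated together, and such a pair is called a culture below. No source used here says whether a culture was made from 1 pup or from several.

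Cells enter mitosis when CDK1 bound to cyclin B is switched on by CDC25 phosphatases. Aurora kinases and the chromosomal passenger complex then correct the attachment of chromosomes to the spindle, the checkpoint kinases BUB1 and TTK hold anaphase back until all kinetochores are attached, and the anaphase-promoting complex with its activator CDC20 ends mitosis by marking cyclin B and securin for destruction. The transcripts of these proteins peak together in G2 and M phase, and many of their promoters carry a cell cycle homology region (CHR) read by the MuvB complex with B-MYB and FOXM1, next to CCAAT boxes bound by NF-Y. Their summed level in a culture is therefore often used as a measure of how many cells are dividing, and in bulk RNA fewer dividing cells and less of these transcripts per cell cannot be told apart.

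Promoters were available for 44 of the 50 genes from RefSeq on GRCm38.p6, as 250 bases before and 50 after the gene start, and those of *Aurkb*, *Cdc25c*, *Cdca2*, *Dlgap5*, *Smc4* and *Tpx2* were not used here. On either strand, TTTGAA or TTCGAA, the letters of the CHR, were found in 32 of the 44 windows (72.7%) against 19.4% of all 27025 promoter windows. CCAAT was found in 34 (77.3% against 37.9%), at least 2 copies of it in 28 (63.6% against 12.2%), and CCAAT together with a CHR in 27 (61.4% against 7.7%). The E2F letters TTCCCGC or TTTGGCGC were found in 1 window, that of *Ncapd2* (2.27% against 5.14%). TTCGAA is its own reverse complement, and none of these matches shows binding. The 150 bases from 100 before to 50 after the start are printed for 6 genes with a CHR to show how the letters lie beside each other, 5′ to 3′, with the letters of the CHR and the CCAAT box, on either strand, in capitals (read from the opposite strand, TTTGAA appears as TTCAAA, and CCAAT appears as ATTGG). All 6 lie on the minus strand of GRCm38.p6, *Cdk1* at chr10:69352863-69353012, *Ccnb2* at chr9:70421505-70421654, *Aurka* at chr2:172370521-172370670, *Cdc20* at chr4:118437294-118437443, *Bub1* at chr2:127831810-127831959 and *Top2a* at chr11:99024140-99024289.
Cdk1: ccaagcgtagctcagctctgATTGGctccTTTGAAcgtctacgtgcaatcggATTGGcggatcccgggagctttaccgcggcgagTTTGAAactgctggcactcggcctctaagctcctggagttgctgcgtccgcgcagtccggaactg
Ccnb2: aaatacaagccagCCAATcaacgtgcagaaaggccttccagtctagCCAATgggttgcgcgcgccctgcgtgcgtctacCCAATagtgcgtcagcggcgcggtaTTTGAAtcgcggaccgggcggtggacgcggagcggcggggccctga
Aurka: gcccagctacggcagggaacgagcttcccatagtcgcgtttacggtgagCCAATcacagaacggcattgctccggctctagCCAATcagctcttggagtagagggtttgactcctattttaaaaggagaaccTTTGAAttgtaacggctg
Cdc20: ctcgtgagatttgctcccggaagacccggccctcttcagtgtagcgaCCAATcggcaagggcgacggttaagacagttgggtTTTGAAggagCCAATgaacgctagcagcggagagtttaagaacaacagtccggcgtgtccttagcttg
Bub1: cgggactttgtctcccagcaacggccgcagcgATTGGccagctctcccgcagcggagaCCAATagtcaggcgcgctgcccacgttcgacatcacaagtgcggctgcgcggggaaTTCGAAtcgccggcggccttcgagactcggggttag
Top2a: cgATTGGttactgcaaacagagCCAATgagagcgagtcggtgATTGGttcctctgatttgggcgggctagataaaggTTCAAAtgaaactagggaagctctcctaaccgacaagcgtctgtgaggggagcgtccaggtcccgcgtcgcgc
In the *Cdk1* window 1 CHR began 15 bases before the start and another 71 bases before it, between 2 inverted CCAAT boxes. In the printed stretches of *Aurka*, *Ccnb2* and *Bub1* the CHR lay just after the annotated start, downstream of the CCAAT boxes there, and *Bub1* carried the TTCGAA form.

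The library totals recovered from the steps between FPKM values were 26886878 to 30335265 read pairs, and each member had 185 to 14003 reads per library, with *Cdc25c* the lowest. The values are FPKM, reads scaled by sequencing depth and by a length assigned to each gene. Since that length was the same in the NS and St tables but unrelated to the annotated one, genes were compared with each other by reads per kb of merged exons. Per 1000000 reads of a library, WT NS levels ran from 2.64 ± 0.111 (SD, n = 3) for the kinetochore gene *Ndc80* to 137 ± 8.95 for the tubulin gene *Tubb4b*, with *Cdk1* at 19.8 ± 1.69, *Mki67* at 21.8 ± 2.39 and *Top2a* at 30.2 ± 1.24. Libraries labelled TNFR2-/- held more *Tnfrsf1b* reads (213 to 346 in NS, 282 to 356 in St) than WT libraries (12 to 24 in NS, 61 to 145 in St). Reads summed over a gene do not show which exons they came from, so every direction between genotypes given here rests on the labels.

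The 50 genes were expressed at similar levels in the 3 WT cultures and differed widely between the 3 TNFR2-/- cultures. The mean level (geometric mean of FPKM + 0.5, as a percent of the mean of WT NS) was 103, 97.2 and 99.5% in WT NS cultures 2, 3 and 4, and 98.2, 87.1 and 66.4% in TNFR2-/- NS cultures 2, 4 and 5. After stimulation it was 101, 87.2 and 90.7% in WT St and 88.4, 77.2 and 58% in TNFR2-/- St, in the same order of cultures. The order of the TNFR2-/- cultures was thus the same in both conditions, and TNFR2-/- NS culture 2 lay within the range of WT NS. The group means were 100 ± 3.14% in WT NS, 92.9 ± 6.99% in WT St, 83.9 ± 16.2% in TNFR2-/- NS and 74.6 ± 15.4% in TNFR2-/- St (SD, n = 3 each), and neighbors in this order differed by less than the larger of their SDs except WT NS and WT St, whose difference was close to it. These SDs are between cultures, so they do not measure the change from NS to St within a culture, which is given below.

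**Figure D1:**
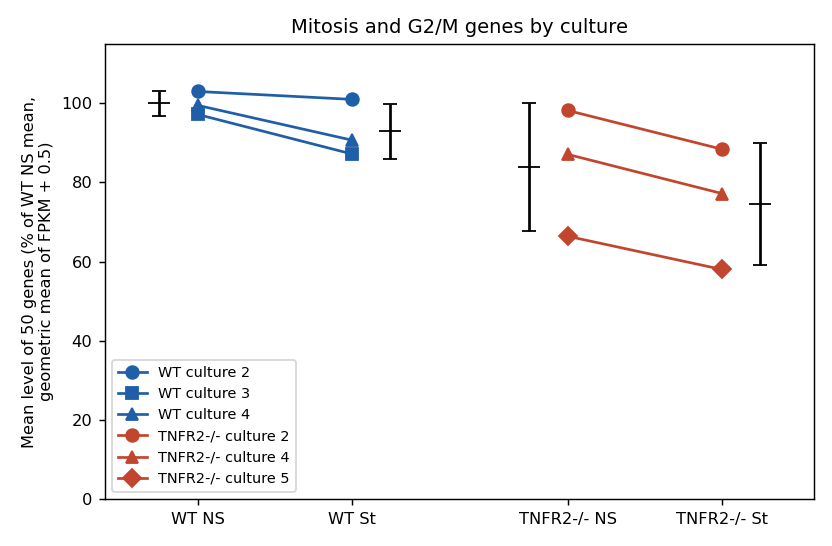
Mean level of the 50 genes in each library, as a percent of the WT NS mean (y axis, geometric mean of FPKM + 0.5), by group (x axis). Points are libraries, lines join the NS and St library of 1 culture, and bars show the mean and SD of 3 libraries; every culture was lower in St than in NS, and TNFR2-/- culture 5 was lowest in both conditions.

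**Figure D2:**
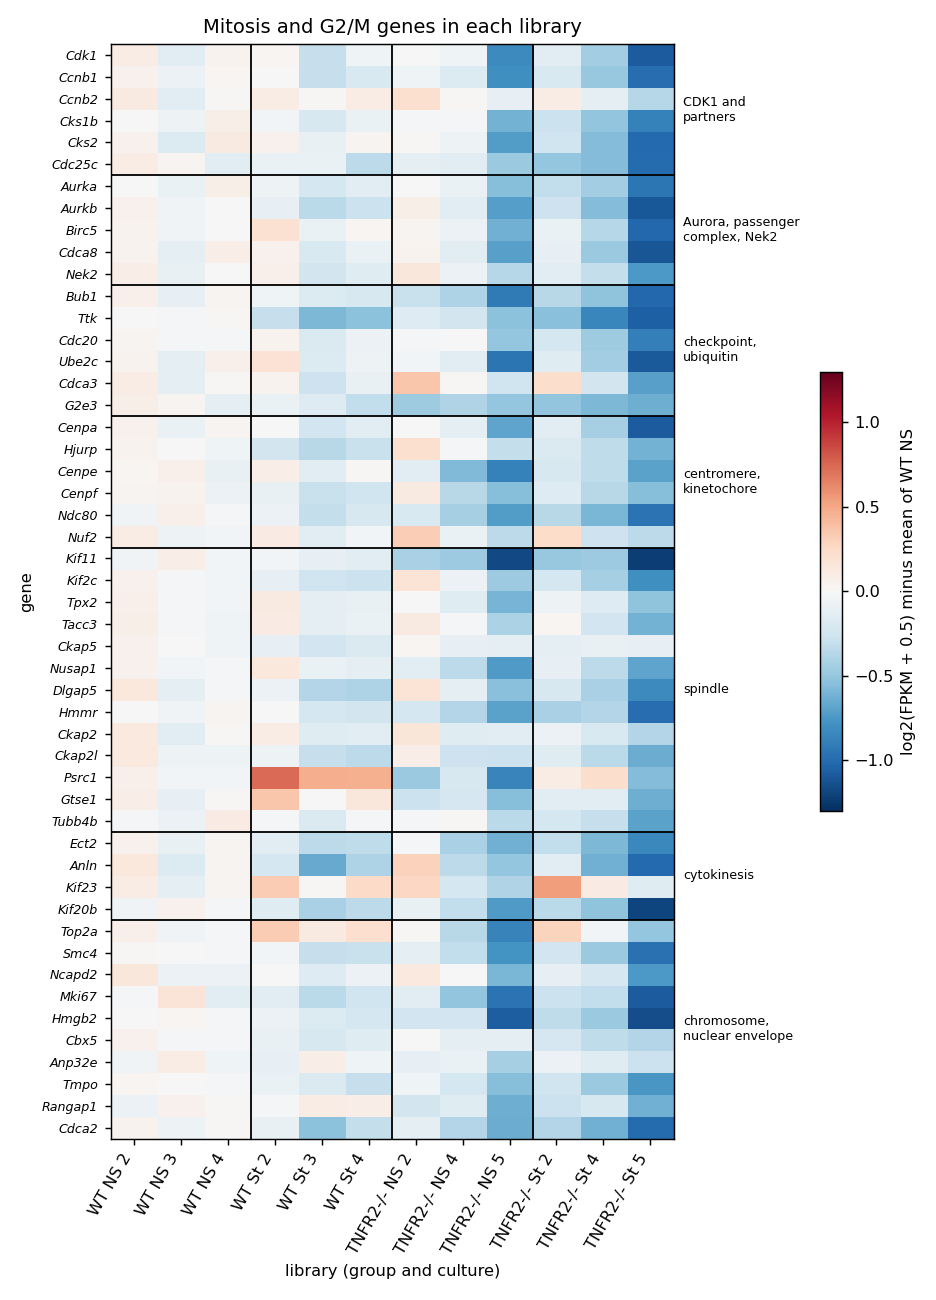
Level of each of the 50 genes (rows, by role) in each of the 12 libraries (columns, by group and culture), as log2(FPKM + 0.5) minus the mean of WT NS. Blue is lower and red higher than WT NS; TNFR2-/- culture 5 is blue in most rows in both conditions, and *Psrc1*, *Kif23* and *Top2a* are redder in WT St than in WT NS.

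Stimulation for 3 h was accompanied by small decreases of most of the 50 genes. In the 3 WT cultures the mean St level was 97.4, 89.7 and 91.2% of the NS level of the same culture, with 33, 43 and 40 genes lower. In the TNFR2-/- cultures it was 90, 88.7 and 87.4%, with 44, 43 and 40 genes lower. Across all 6 cultures 27 genes were lower in St each time, 3 were higher each time and 20 went both ways (all genes tested: 29.6% lower and 13.2% higher each time). The median log2 fold change was −0.119 in WT St vs WT NS, with 42 genes lower, and −0.208 in TNFR2-/- St vs TNFR2-/- NS, with 43 lower, against −0.055 and −0.109 over all genes tested, of which 61.3% and 66.3% were lower. With the libraries rescaled by median-of-ratios factors, which brought the median of all genes to −0.007 and −0.015, the members' medians were −0.064 and −0.091, with 35 genes lower in each. The share of all genes lower after rescaling is not given here.

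No member met the full criteria for a call (adjusted p of at most 0.05, at least 1.5-fold, mean of at least 1 FPKM) in WT St vs WT NS, where 7.53% of all genes did (2.95% downward), or in TNFR2-/- St vs TNFR2-/- NS, where 10.1% did (4.68% downward). At an unadjusted p under 0.05, 5 and 4 members were found (27.8% and 37.6% of all genes). By the adjusted p alone, *Ttk* fell in both genotypes and *Cbx5* in TNFR2-/-, against 8.36% and 16.3% of all genes lower. To set aside the differences between cultures, the NS and St libraries were also compared within cultures, with culture as a term of the model, and below a gene is said to have risen or fallen after stimulation where its adjusted p in that fit was at most 0.05. There 3 genes rose and 17 fell in WT (6% and 34% of the members, against 11.4% and 20.2% of all genes), and 3 rose and 31 fell in TNFR2-/- (6% and 62%, against 13.4% and 31.7%), with none past 1.5-fold. After rescaling by median-of-ratios factors 5 rose and 11 fell in WT (13.8% and 13.9% of all genes), and 4 rose and 13 fell in TNFR2-/- (18.2% and 17.3%), and *Psrc1* in WT passed 1.5-fold. The count of genes that fell thus depended on the scaling. Without both libraries of TNFR2-/- culture 5, as deposited, 4 rose and 15 fell in WT (11.6% and 19.2% of all genes) and 3 rose and 20 fell in TNFR2-/- (11% and 22.2%).

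The same 3 genes, *Psrc1*, *Top2a* and *Kif23*, rose in both genotypes and under both scalings. *Psrc1* (ENSMUSG00000068744, GRCm38 chr3:108383839-108388231, plus strand) encodes a microtubule-binding protein of the mitotic spindle and was at 8.55, 7.89 and 7.94 FPKM in WT NS cultures 2, 3 and 4 and at 13.9, 11.5 and 11.4 FPKM in WT St. In TNFR2-/- cultures 2, 4 and 5 *Psrc1* went from 5.66, 6.96 and 4.24 FPKM in NS to 8.7, 9.61 and 5.32 FPKM in St. All WT St libraries lay above all WT NS libraries, whereas TNFR2-/- St culture 5 lay below TNFR2-/- NS cultures 2 and 4. The log2 fold change of *Psrc1* was 0.56 ± 0.07 (SE, within cultures) in WT, with an adjusted p of 0.00166, and 0.44 ± 0.07 in TNFR2-/-, with an adjusted p of 0.00339. Without the culture term the adjusted p values of *Psrc1* were 0.107 and 0.159.

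*Top2a* (ENSMUSG00000020914, chr11:98992943-99024189, minus strand) encodes the DNA topoisomerase that untangles sister chromatids, and *Kif23* (ENSMUSG00000032254, chr9:61915905-61946774, minus strand) a kinesin of the spindle midzone that is needed to complete division. *Top2a* was at 2243, 2078 and 2109 FPKM in WT NS and at 2692, 2327 and 2486 FPKM in WT St, with no overlap. In TNFR2-/- it was at 2160, 1663 and 1170 FPKM in NS and 2620, 2089 and 1517 FPKM in St, higher in St in every culture although the groups overlapped. The log2 fold changes of *Top2a* were 0.22 ± 0.03 (adjusted p = 0.00298) in WT and 0.33 ± 0.03 (adjusted p = 0.000402) in TNFR2-/- within cultures. *Kif23* rose likewise, from 421, 360 and 405 to 497, 400 and 470 FPKM in WT and from 475, 337 and 300 to 574, 425 and 354 FPKM in TNFR2-/-. Its log2 fold changes were 0.20 ± 0.03 (adjusted p = 0.00368) and 0.28 ± 0.03 (adjusted p = 0.000655). Without the culture term *Top2a* and *Kif23* had adjusted p values of at least 0.315.

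**Figure D3:**
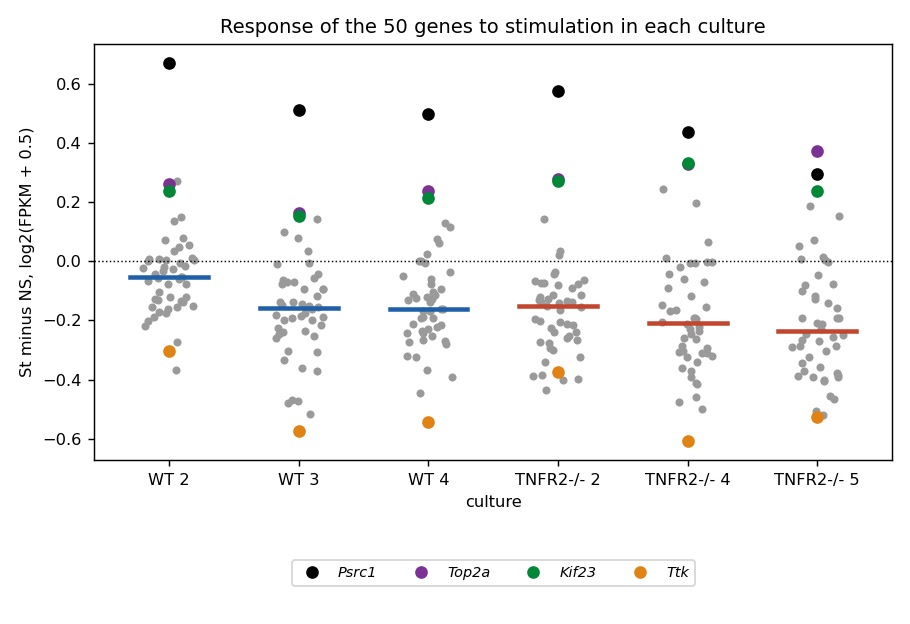
St minus NS level of each of the 50 genes, log2(FPKM + 0.5) (y axis), in each culture (x axis). Points are genes and horizontal bars the median over the 50 genes, which runs from −0.052 in WT culture 2 to −0.237 in TNFR2-/- culture 5; *Psrc1*, *Top2a* and *Kif23* are above 0 and *Ttk* below 0 in all 6 cultures.

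Among CDK1 and its partners, none of the 6 genes rose, 1 fell in WT and all 6 fell in TNFR2-/- (0 and 3 after median-of-ratios scaling), with median log2 fold changes of −0.109 and −0.296. Over all genes 20.2% fell in WT and 31.7% in TNFR2-/-, and 13.9% and 17.3% after median-of-ratios scaling. These shares are the background for this role group and each one below, with the rescaled shares for the rescaled counts. *Cdk1* (ENSMUSG00000019942, chr10:69335146-69352938, minus strand), the kinase that drives entry into mitosis, was at 377, 320 and 366 FPKM in WT NS and 360, 288 and 341 FPKM in WT St. In TNFR2-/- it was at 354, 340 and 199 FPKM in NS and 322, 259 and 167 FPKM in St, lower in St in each culture with overlapping groups. The log2 fold change of *Cdk1* was −0.11 ± 0.05 in WT (adjusted p = 0.148) and −0.26 ± 0.05 in TNFR2-/- (adjusted p = 0.00603, and 0.0625 after median-of-ratios scaling). Its cyclin partner *Ccnb1* went from 65.8, 60.4 and 39 FPKM to 59.7, 48.3 and 34.1 FPKM in TNFR2-/-, a log2 fold change of −0.22 ± 0.05 (adjusted p = 0.0163, and 0.193 after that scaling). In WT *Ccnb1* was at 70.9, 64.7 and 69.6 FPKM in NS and 68.8, 55.4 and 59.6 FPKM in St (−0.16 ± 0.05, adjusted p = 0.0613). The second cyclin of this group, *Ccnb2*, had log2 fold changes of 0.07 ± 0.05 (adjusted p = 0.36) in WT and −0.18 ± 0.05 (adjusted p = 0.0284, and 0.405 after that scaling) in TNFR2-/-.

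*Cdc25c*, the phosphatase gene that gives the group its lowest counts, fell in both genotypes. It was at 10.9, 10.5 and 9.26 FPKM in WT NS and 9.6, 9.54 and 7.92 FPKM in WT St, which overlapped. In TNFR2-/- it went from 9.34, 9.14 and 7.16 to 7.04, 6.74 and 4.85 FPKM, with every St library below every NS library. The log2 fold changes of *Cdc25c* were −0.17 ± 0.05 (adjusted p = 0.0492, and 0.161 after median-of-ratios scaling) and −0.44 ± 0.05 (adjusted p = 0.000943, and 0.00398 after that scaling). *Cks2*, a small CDK-binding subunit, was at 255, 217 and 265 FPKM in WT NS and 255, 229 and 251 FPKM in WT St, a log2 fold change of 0.001 ± 0.05. In TNFR2-/- *Cks2* went from 247, 233 and 148 to 204, 165 and 121 FPKM, a log2 fold change of −0.35 ± 0.05 (adjusted p = 0.00229). The difference between these responses was −0.36 ± 0.08 with an adjusted p of 0.102, so a difference between genotypes was not established for *Cks2*.

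Of the 5 Aurora kinase, passenger complex and *Nek2* genes, 1 fell in WT and all 5 fell in TNFR2-/- as deposited, and 1 and 2 after median-of-ratios scaling. *Aurkb*, the kinase of the passenger complex, was at 86.8, 81.1 and 83.3 FPKM in WT NS and at 77.9, 65.6 and 68.9 FPKM in WT St, without overlap. In TNFR2-/- *Aurkb* went from 88.1, 75.4 and 50.6 to 69.5, 56.6 and 38.8 FPKM, with overlapping groups but a decrease in each culture. Its log2 fold changes were −0.24 ± 0.04 (adjusted p = 0.00427) and −0.38 ± 0.04 (adjusted p = 0.00048), and it fell in both genotypes under both scalings. *Aurka*, the kinase of the spindle poles, was at 18.9, 17.7 and 19.8 FPKM in WT NS, 17.9, 15.9 and 16.9 FPKM in WT St, 18.8, 17.7 and 12.6 FPKM in TNFR2-/- NS and 14.9, 13.6 and 9.53 FPKM in TNFR2-/- St. It fell in TNFR2-/- (−0.36 ± 0.05, adjusted p = 0.00126) and missed the threshold in WT (−0.15 ± 0.05, adjusted p = 0.0508). *Birc5*, which encodes the passenger protein survivin, showed 0.04 ± 0.06 in WT and −0.27 ± 0.06 (adjusted p = 0.0119, and 0.104 after median-of-ratios scaling) in TNFR2-/-. *Nek2*, a centrosome kinase, had log2 fold changes of −0.11 ± 0.07 and −0.30 ± 0.07, the latter with an adjusted p of 0.0107, and 0.0652 after that scaling.

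Of the 6 checkpoint and ubiquitin ligase genes, 2 fell in WT and 4 in TNFR2-/- (2 and 2 after median-of-ratios scaling). *Ttk* (ENSMUSG00000038379, chr9:83834689-83872389, plus strand), which encodes the checkpoint kinase MPS1, showed the largest decrease of the 50 genes in both genotypes. It was at 36.9, 36.5 and 37.2 FPKM in WT NS and at 29.8, 24.4 and 25.4 FPKM in WT St, and went from 32.7, 31.2 and 25.3 to 25.1, 20.3 and 17.4 FPKM in TNFR2-/-. In each genotype all St libraries lay below all NS libraries. The log2 fold changes of *Ttk* were −0.47 ± 0.07 (adjusted p = 0.00286) and −0.50 ± 0.07 (adjusted p = 0.0016), and it also passed the adjusted p without the culture term (0.0382 and 0.0204). *Bub1*, the other checkpoint kinase, was at 18.4, 16.3 and 18 FPKM in WT NS and 16.8, 15.5 and 15.1 FPKM in WT St, with log2 fold changes of −0.15 ± 0.05 (adjusted p = 0.0721) in WT and −0.10 ± 0.05 (adjusted p = 0.167) in TNFR2-/-. *Cdc20*, the activator of the anaphase-promoting complex, was at 8.5, 8.18 and 8.1 FPKM in WT NS and 8.52, 7.18 and 7.81 FPKM in WT St, and went from 8.1, 8.24 and 5.7 to 6.96, 5.86 and 4.22 FPKM in TNFR2-/-. It fell in TNFR2-/- (−0.35 ± 0.07, adjusted p = 0.00764) and gave −0.07 ± 0.07 (adjusted p = 0.492) in WT. *Cdca3*, a regulator of mitotic entry, and *Ube2c*, the ubiquitin-conjugating enzyme of the anaphase-promoting complex, gave −0.10 ± 0.06 and −0.02 ± 0.07 in WT and −0.28 ± 0.06 and −0.19 ± 0.07 in TNFR2-/-, of which the value of *Cdca3* in TNFR2-/- passed (adjusted p = 0.00924, and 0.0775 after that scaling).

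Of the 6 centromere and kinetochore genes, 1 fell in WT and 2 fell in TNFR2-/- (1 and 1 after median-of-ratios scaling). *Hjurp*, the chaperone that places CENP-A at centromeres, fell in both genotypes, from 16, 15.6 and 14.9 to 13.1, 12 and 12.6 FPKM in WT and from 18, 15.3 and 12.4 to 13.5, 12.2 and 9.94 FPKM in TNFR2-/-. Its log2 fold changes were −0.29 ± 0.05 (adjusted p = 0.005) and −0.34 ± 0.05 (adjusted p = 0.00179). *Cenpe*, a kinetochore motor, was at 10.2, 10.5 and 9.31 FPKM in WT NS and 10.6, 9.01 and 10.1 FPKM in WT St, and at 8.95, 6.56 and 5.19 FPKM in TNFR2-/- NS and 8.55, 7.87 and 5.97 FPKM in TNFR2-/- St. It moved in different directions among cultures, with log2 fold changes of −0.02 ± 0.09 (adjusted p = 0.919) and 0.12 ± 0.09 (adjusted p = 0.313). *Ndc80*, of the outer kinetochore complex, gave −0.20 ± 0.07 and −0.18 ± 0.07, neither past the threshold.

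Among the 13 spindle genes, *Psrc1* rose in both genotypes, 4 fell in WT and 6 fell in TNFR2-/- (2 and 3 after median-of-ratios scaling). After that scaling *Gtse1*, named because it passed there, also rose in WT (0.225 ± 0.056, adjusted p = 0.0258), where 13.8% of all genes rose. *Kif2c*, a kinesin that depolymerizes microtubules at centromeres, went from 64.5, 60.9 and 60.5 to 57.3, 51.6 and 51.1 FPKM in WT and from 69.9, 58.8 and 44.5 to 52.8, 45.7 and 35.5 FPKM in TNFR2-/-. It fell in both genotypes and under both scalings (−0.22 ± 0.03, adjusted p = 0.00412, and −0.36 ± 0.03, adjusted p = 0.000333). *Dlgap5*, which encodes the spindle protein HURP, did so too, with −0.29 ± 0.05 (adjusted p = 0.00468) and −0.33 ± 0.05 (adjusted p = 0.00194). *Ckap5*, a microtubule polymerase, was at 47.7, 46 and 44 FPKM in WT NS and 42.6, 38.6 and 40.3 FPKM in WT St, a fall of 0.18 ± 0.05 (log2, adjusted p = 0.0301) seen with the values as deposited and not after median-of-ratios scaling. In TNFR2-/- *Ckap5* gave −0.04 ± 0.05 (adjusted p = 0.492).

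Of the 4 cytokinesis genes, 3 fell in each genotype while *Kif23* rose (2 fell in WT and 1 in TNFR2-/- after median-of-ratios scaling). *Anln*, the actin-binding scaffold of the contractile ring, showed the largest decrease among them, from 399, 321 and 373 to 309, 230 and 274 FPKM in WT and from 447, 287 and 256 to 331, 235 and 180 FPKM in TNFR2-/-. Every culture was lower in St, and in WT the groups did not overlap. The log2 fold changes of *Anln* were −0.43 ± 0.05 (adjusted p = 0.00081) and −0.41 ± 0.05 (adjusted p = 0.000745). *Kif20b*, a kinesin of the late spindle, gave −0.30 ± 0.08 in each genotype, passing with the values as deposited (adjusted p = 0.0354 and 0.0251) but in neither genotype under both scalings.

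The 10 genes of chromosome structure and the nuclear envelope included *Top2a*, which rose, 5 that fell in WT and 5 that fell in TNFR2-/- (3 and 1 after median-of-ratios scaling). *Cdca2*, which targets protein phosphatase 1 to chromosomes, fell in both genotypes as deposited (−0.31 ± 0.06, adjusted p = 0.0103, and −0.29 ± 0.06, adjusted p = 0.0095), although in TNFR2-/- its adjusted p after median-of-ratios scaling was 0.0781. *Cbx5*, which encodes the heterochromatin protein HP1α, went from 229, 216 and 216 to 206, 190 and 197 FPKM in WT and from 220, 202 and 202 to 189, 175 and 169 FPKM in TNFR2-/-, without overlap in either genotype. This decrease was small but even between cultures (−0.16 ± 0.03, adjusted p = 0.00605, and −0.23 ± 0.03, adjusted p = 0.000948), and *Cbx5* was singled out after its values were seen. *Mki67*, the proliferation marker Ki-67, was at 364, 413 and 333 FPKM in WT NS and 333, 288 and 307 FPKM in WT St, and at 333, 258 and 189 FPKM in TNFR2-/- NS and 303, 295 and 174 FPKM in TNFR2-/- St. It did not pass in either genotype (−0.25 ± 0.10, adjusted p = 0.0981, and −0.02 ± 0.10, adjusted p = 0.902), and in TNFR2-/- culture 4 it was higher in St. *Hmgb2*, a chromatin protein, passed in both genotypes as deposited (adjusted p = 0.0353 and 0.0497) and in neither after rescaling. *Anp32e*, a histone chaperone, gave −0.02 ± 0.05 in WT and 0.04 ± 0.05 in TNFR2-/- as deposited. After median-of-ratios scaling *Anp32e* rose in TNFR2-/- (0.153 ± 0.046, adjusted p = 0.0428) and not in WT. *Rangap1*, named because it passed there, rose in WT after that scaling (0.115 ± 0.03, adjusted p = 0.0303) and not in TNFR2-/-. Over all genes 13.8% rose in WT and 18.2% in TNFR2-/- after that scaling.

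With the values as deposited, 15 (88.2%) of the 17 genes that fell in WT also fell in TNFR2-/-, where they were 48.4% of the 31. After median-of-ratios scaling 11 and 13 fell. The overlap between genotypes was not computed over all genes, so the 88.2% has no background here. As deposited, 14 members neither rose nor fell in either genotype. Whether the response itself differed between genotypes was tested with the interaction of genotype and stimulation. No member met the criteria for a call, no member had an adjusted p of at most 0.05 with or without the culture term, and the smallest was 0.102 for *Cks2*. Over all genes 0.00553% were called. At an unadjusted p under 0.05 there were 0 members without the culture term (7.95% of all genes) and 10 with it (21.3% of all genes). The median difference in log2 response was −0.054 with 31 of 50 genes more negative in TNFR2-/-, against −0.049 with 59.6% more negative over all genes. After median-of-ratios scaling it was 0.004 with 24 genes, against 0.001 over all genes. As deposited, the median difference was −0.235 over CDK1 and its partners and −0.209 over the Aurora and passenger genes (6 of 6 and 5 of 5 more negative, and 5 of 6 and 5 of 5 with medians of −0.18 and −0.152 after rescaling), and between −0.098 and 0.032 in the other role groups. These group medians are descriptions, and 1 library moved the median over all members from −0.203 (without TNFR2-/- NS culture 5) to 0.105 (without TNFR2-/- St culture 5).

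Before stimulation the level of the 50 genes was lower in TNFR2-/- than in WT on average, and most of that difference lay in culture 5. The median log2 fold change in TNFR2-/- NS vs WT NS was −0.266, with 48 of 50 genes lower, against 0.038 with 44.1% of all genes lower. In TNFR2-/- St vs WT St it was −0.356, with 49 lower, against −0.003 with 50.6% of all genes lower. No member met the criteria for a call in either comparison, where 2.9% and 1.8% of all genes did (1.28% and 0.614% downward), while 14 and 19 members had an unadjusted p under 0.05 (30.2% and 26.7% of all genes). Without both libraries of culture 5 the medians were −0.083, with 39 genes lower, and −0.183, with 44 lower. The share of all genes lower without culture 5 is not given here, so these counts have no background. As a percent of the WT mean, the median gene was at 99.2% in TNFR2-/- NS culture 2, 89.4% in culture 4 and 65.5% in culture 5, and at 96.4, 81.4 and 61.1% in the St libraries. Culture 5 was the lowest of the 6 NS libraries for 47 of the 50 genes and the lowest of the 6 St libraries for 49, against 21.8% and 24% of all genes.

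**Figure D4:**
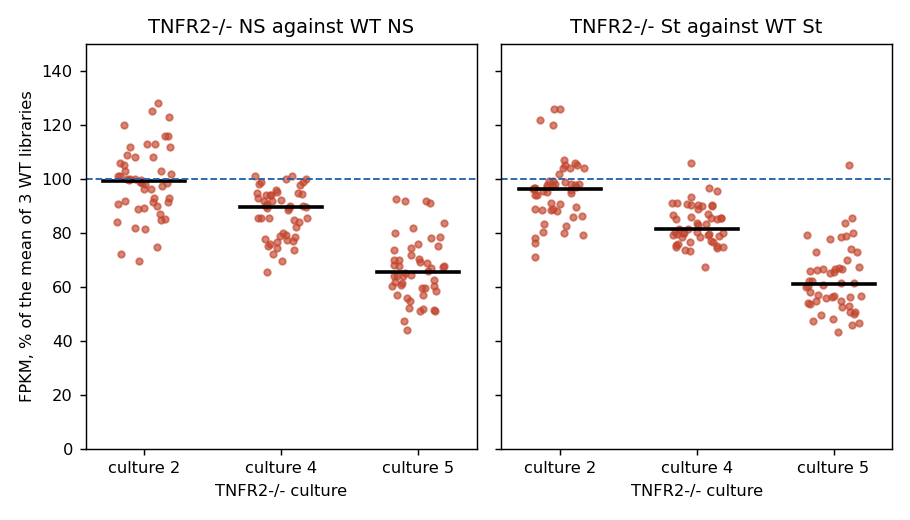
Level of each of the 50 genes in each TNFR2-/- culture, as a percent of the mean of the 3 WT libraries of the same condition (y axis, FPKM), without (left) and with (right) stimulation. Points are genes, bars are medians and the dashed line is the WT mean; the medians run from 99.2% in culture 2 to 65.5% in culture 5 in NS, and from 96.4% to 61.1% in St.

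For 17 of the 50 genes all TNFR2-/- NS libraries lay below all WT NS libraries (34%, against 14.3% of all genes), and for 17 also in St (34%, against 17.3%). For cultures 2 and 4 alone the counts were the same, but 2 libraries lie below 3 others more readily than 3 do. The share over all genes was not computed for these 2 cultures, so that count has no background here. The one member past an adjusted p of 0.05 in these comparisons was *G2e3* (ENSMUSG00000035293, chr12:51348061-51376986, plus strand), a ubiquitin ligase gene expressed in G2 and M phase, which was singled out after its values were seen. It was at 124, 121 and 109 FPKM in WT NS against 85.1, 89.7 and 82.9 FPKM in TNFR2-/- NS, and at 111, 105 and 94.1 FPKM in WT St against 82.7, 78.5 and 75.8 FPKM in TNFR2-/- St. In both conditions all TNFR2-/- libraries lay below all WT libraries, and culture 5 was close to cultures 2 and 4. The log2 fold changes of *G2e3* were −0.46 ± 0.07 (adjusted p = 0.0135) and −0.39 ± 0.07 (adjusted p = 0.0238), under the 1.5-fold required for a call. By the adjusted p alone 4.75% and 2.75% of all genes were lower.

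The largest difference between genotypes in NS was that of *Kif11*, the kinesin that separates the spindle poles, also named after its values were seen. It was at 131, 144 and 132 FPKM in WT NS against 101, 97.7 and 59.8 FPKM in TNFR2-/- NS, and at 132, 126 and 122 FPKM in WT St against 96.5, 97.4 and 57.9 FPKM in TNFR2-/- St. All TNFR2-/- libraries lay below all WT libraries, with log2 fold changes of −0.69 ± 0.22 (adjusted p = 0.0692) and −0.63 ± 0.22 (adjusted p = 0.107). Without culture 5, *Kif11* passed the adjusted p of 0.05 in both conditions, and *G2e3* in NS alone (1.92% and 0.649% of all genes were lower by this measure in NS and St). *Psrc1*, *Bub1*, *Cenpe* and *Mki67* had log2 fold changes of −0.52 ± 0.21, −0.53 ± 0.19, −0.54 ± 0.18 and −0.54 ± 0.23 in NS, with adjusted p values of 0.0757 to 0.145, and −0.64 ± 0.21, −0.49 ± 0.19, −0.40 ± 0.18 and −0.31 ± 0.23 in St. *Bub1* was at 14.3, 13.2 and 9.01 FPKM in TNFR2-/- NS and 13.6, 12.1 and 8.37 FPKM in TNFR2-/- St, below all WT libraries of the same condition.

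*Cdk1*, *Ccnb1*, *Aurka*, *Aurkb* and *Cdc20* differed less, by −0.30 ± 0.25, −0.34 ± 0.22, −0.21 ± 0.17, −0.27 ± 0.22 and −0.18 ± 0.17 in NS, and in TNFR2-/- NS culture 2 *Cdk1*, *Ccnb1* and *Aurka* lay within the range of WT NS and *Aurkb* above it. In St the same genes gave −0.45 ± 0.25, −0.40 ± 0.22, −0.42 ± 0.17, −0.40 ± 0.22 and −0.45 ± 0.17, none past an adjusted p of 0.05. *Top2a* gave −0.41 ± 0.22 in NS and −0.30 ± 0.22 in St. At the other end, *Ccnb2* and *Cdca3* were higher by 0.04 ± 0.12 and 0.04 ± 0.22 in TNFR2-/- NS, the 2 members that were not lower, and *Ckap5* was higher by 0.07 ± 0.06 in TNFR2-/- St, the 1 member that was not lower there. By role, the median log2 fold changes in NS ran from −0.161 for the spindle genes to −0.36 for the chromosome and nuclear envelope genes, and in St from −0.236 for cytokinesis to −0.445 for CDK1 and its partners. Genes with and without the CHR letters in the promoter had medians of −0.267 (n = 32) and −0.268 (n = 12) in NS and of −0.336 and −0.369 in St, and after stimulation of −0.119 and −0.028 in WT and −0.193 and −0.192 in TNFR2-/-.

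Markers of other cells also differed between these cultures. The summed level of 8 astrocyte markers was 7599 to 8503 FPKM in WT NS, 10612 to 15747 in TNFR2-/- NS, 7217 to 7386 in WT St and 9886 to 14778 in TNFR2-/- St. *Gfap*, the intermediate filament gene of astrocytes, was at 19.7, 23.6 and 231 FPKM in TNFR2-/- NS cultures 2, 4 and 5, so culture 5 was highest for it and lowest for the mitosis genes. The astrocyte markers' part in the genotype differences of the mitosis genes was not tested. The 8 OPC markers, all detected in every library, summed to 11896 to 13878 FPKM in WT NS, 11102 to 12664 in TNFR2-/- NS, 8694 to 9793 in WT St and 8534 to 9513 in TNFR2-/- St. The 7 markers of mature oligodendrocytes summed to 496 to 1492, 890 to 1301, 546 to 1570 and 683 to 1131 FPKM in the same order of groups. Of 10 microglial markers 1 passed the filter on low values and their sums were 1.7 to 4.63, 2.08 to 3.88, 2.55 to 3.86 and 1.98 to 4.54 FPKM, with *Itgam* and *Ptprc* at 0 throughout WT NS, *C1qc* at 0 throughout each of the other groups and *C1qa* at 0 throughout WT St. The 8 markers of mural cells and fibroblasts summed to 234 to 728, 112 to 437, 271 to 637 and 75.1 to 366 FPKM and the 6 endothelial markers to 278 to 449, 244 to 421, 330 to 575 and 352 to 694 FPKM. The 6 neuronal markers summed to 133 to 137, 98.1 to 140, 500 to 523 and 523 to 594 FPKM. The tubulin gene *Tubb3* made up 417 to 445 FPKM of this sum in WT St. All these sums weight a gene by the length assigned to it, which was unrelated to the annotated one. They therefore do not compare genes or lists with each other, and can differ from the mean level. In TNFR2-/- NS culture 5 the OPC markers summed to 11469 FPKM, below every WT NS library, at a mean level of 110% of WT NS. The summed OPC markers were lower and the summed neuronal markers higher in every St library than in every NS library, and their part in the stimulation results was not tested.

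Other genes of the same phase of the cell cycle were measured too. Of 53 further G2/M and mitosis genes 45 were lower in WT St and 48 in TNFR2-/- St than in NS. Their medians were −0.174 and −0.2, and 61.3% and 66.3% of all genes were lower. Within cultures 21 and 29 fell (15 and 16 after median-of-ratios scaling). Over all genes 20.2% and 31.7% fell (13.9% and 17.3% after that scaling). *Plk1*, which encodes a kinase needed throughout mitosis, went from 128, 110 and 123 to 97.8, 83.4 and 88.8 FPKM in WT and from 120, 107 and 80.5 to 90.1, 76.9 and 51.8 FPKM in TNFR2-/-. It fell in both genotypes, with log2 fold changes of −0.42 ± 0.05 (adjusted p = 0.000878) and −0.51 ± 0.05 (adjusted p = 0.000291). With the values as deposited, *Ccna2*, the cyclin of S and G2 phase, fell by 0.18 ± 0.05 (log2, adjusted p = 0.0429) and 0.25 ± 0.05 (adjusted p = 0.00996). Over the alternatives run, its log2 fold change ranged from −0.245 to −0.125 in WT and from −0.45 to 0.001 in TNFR2-/-. Its adjusted p after median-of-ratios scaling is not given here. *Cdc25b*, a relative of *Cdc25c* that starts CDK1 activation, met the criteria for a call in TNFR2-/- (2.32, 2.05 and 1.56 FPKM in NS, 1.62, 1.18 and 0.667 FPKM in St; −0.61 ± 0.20 without the culture term, adjusted p = 0.0444). Between genotypes in NS, 49 of the 53 were lower with a median of −0.26, against 44.1% of all genes lower. The nuclear envelope receptor *Lbr* (−0.63 ± 0.15, adjusted p = 0.0312) and the condensin gene *Ncapg2* (−0.82 ± 0.23, adjusted p = 0.0467) met the criteria, as did 1.28% of all genes downward.

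Of the regulators of these genes, 20 in all, of the MuvB complex, B-MYB, FOXM1, the E2Fs and the pocket proteins, 17 were lower in St in each genotype, with medians of −0.145 and −0.173. Over all genes 61.3% in WT and 66.3% in TNFR2-/- were lower in St. With the values as deposited, *Foxm1* gave −0.10 ± 0.04 (adjusted p = 0.104) in WT and fell by 0.15 ± 0.04 (log2, adjusted p = 0.0188) in TNFR2-/-. Over the alternatives run, the log2 fold change of *Foxm1* in TNFR2-/- ranged from −0.364 to 0.044. Its adjusted p after median-of-ratios scaling is not given here. *Mybl2*, which encodes B-MYB, fell by 0.33 ± 0.06 in WT (log2, adjusted p = 0.00929) and gave −0.19 ± 0.06 (adjusted p = 0.0525) in TNFR2-/-. The activator gene *E2f2* met the criteria in TNFR2-/-, from 19.6, 17.3 and 12.7 to 11.3, 10.7 and 6.79 FPKM (−0.76 ± 0.19 without the culture term, adjusted p = 0.0131). None of 15 genes of the anaphase-promoting complex was called in any comparison, where 0.00553% to 10.1% of all genes were. Their medians were −0.096 and −0.176 after stimulation and 0.045 and −0.033 between genotypes.

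Larger changes were found among genes of G1 phase. *Cdk6*, a kinase of G1 progression, was at 4.64, 4.2 and 4.93 FPKM in WT NS and at 27.8, 22.8 and 24.1 FPKM in WT St, and rose from 5.8, 4.43 and 4.74 to 45.8, 37.1 and 43.6 FPKM in TNFR2-/-. Its log2 fold changes without the culture term were 2.32 ± 0.12 (adjusted p = 3.275e-07) and 2.96 ± 0.12 (adjusted p = 4.857e-08), and it was 0.75 ± 0.12 higher in TNFR2-/- St than in WT St (adjusted p = 0.0158). In the same fit *Ccnd1*, the cyclin induced by mitogens, fell by 0.76 ± 0.16 (log2, adjusted p = 0.00705) and 0.63 ± 0.16 (adjusted p = 0.0138), and *Mycn* by 1.91 ± 0.34 (adjusted p = 0.00297) and 1.32 ± 0.34 (adjusted p = 0.0162). The CDK inhibitor gene *Cdkn1b* (p27) fell too, by 0.63 ± 0.08 (adjusted p = 0.000457) and 0.72 ± 0.08 (adjusted p = 0.000123), while *Cdkn1a* (p21) rose within cultures by 0.28 ± 0.05 (adjusted p = 0.00606) and 0.36 ± 0.05 (adjusted p = 0.00149). *Myc* rose within cultures by 0.28 ± 0.04 (adjusted p = 0.00361) and 0.38 ± 0.04 (adjusted p = 0.000635). *Ccnd3* and *Ccne1*, the latter named after its values were seen, met the criteria in TNFR2-/- (−0.75 ± 0.12, adjusted p = 0.00138, and −0.72 ± 0.13, adjusted p = 0.00199). In all, 1 of 17 genes of this list was called up and 3 down in WT, and 1 up and 5 down in TNFR2-/-. Over all genes 4.58% were called up and 2.95% down in WT, and 5.41% up and 4.68% down in TNFR2-/-.

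Of 41 S phase genes, 38 were lower in WT St and 39 in TNFR2-/- St, with medians of −0.207 and −0.24 (61.3% and 66.3% of all genes were lower). Within cultures 23 and 28 fell (16 and 18 after median-of-ratios scaling), against 20.2% and 31.7% of all genes (13.9% and 17.3% after that scaling). *Cdt1*, a replication licensing factor, met the criteria in both genotypes, from 44.5, 43.8 and 47.3 to 29.1, 28.3 and 28.4 FPKM in WT and from 48.8, 45.9 and 34.1 to 30.3, 24.1 and 22.7 FPKM in TNFR2-/- (−0.65 ± 0.13, adjusted p = 0.00727, and −0.72 ± 0.13, adjusted p = 0.0028). Its partner in licensing, *Cdc6*, met them in TNFR2-/- (−0.84 ± 0.14, adjusted p = 0.00153), as did *Cdca7* (−0.61 ± 0.16, adjusted p = 0.0192). *Ung*, a DNA repair glycosylase gene, was called up in WT (0.60 ± 0.13, adjusted p = 0.00777) and gave 0.11 ± 0.13 in TNFR2-/-, a difference of −0.50 ± 0.18 with an adjusted p of 0.56 for the interaction.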

How the data were processed

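RNAseq of 12 OPC libraries was used. The authors' processing notes name Trim Galore, STAR, edgeR and the build GRCm38. The deposited values are FPKM made by the authors, in 1 table for NS and 1 for St. Each library was divided by its own total, and the divisor of each of the 50 genes was the same in both tables, so levels were compared across tables. On log2(FPKM + 0.5), limma 3.58.1 (R 4.3.3, trended prior, 4 group means) gave all adjusted p values, by Benjamini-Hochberg over the 18081 genes that averaged 0.1 FPKM or more. Fold changes and SEs are on this log2 scale. The second fit had culture as a term. Same-numbered NS and St libraries of a genotype deviated from their group means with correlations of 0.338 to 0.649, other numbers at −0.455 to 0.088, and same numbers across genotypes at −0.078 to 0.204 (13554 genes). Replicates may be technical in part, and p values measure the spread between these libraries.

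The members and all lists were chosen with earlier results of these data known. Named genes were a fixed set, the called genes (up to 3 per other list) and the extremes of each role group. The main fit was tested on simulated reads without differences between cultures, and the fit with culture as a term was not tested in this way. Alternatives were other pseudocounts, filters, scalings, thresholds, weights, fits, replicate blocks, voom on recovered reads and each library left out. Whole reads were found for 26636 of 26636 genes above 0 in at least 2 libraries. A gene above 0 in few libraries gives whole reads readily, so this count does not test the recovery for such genes.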

Additional observations from a re-analysis of the deposited data

How the results depend on the processing

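The number of members called was 0 in all 5 comparisons and moved as follows. By adjusted p alone it was 1 in TNFR2-/- NS vs WT NS, 1 in WT St vs WT NS, 2 in TNFR2-/- St vs TNFR2-/- NS and 1 in TNFR2-/- St vs WT St. With voom on recovered reads it was 1 in TNFR2-/- NS vs WT NS (*Kif11*), and with median-of-ratios scaling and a replicate block within genotype, chosen after seeing the data, 1 in WT St vs WT NS (*Psrc1*, log2 fold change 0.616 ± 0.073, adjusted p = 0.00119). With 1 library left out at a time it was 0 to 1 in TNFR2-/- NS vs WT NS (*Cenpe* without TNFR2-/- NS replicate 2, *Kif11* without TNFR2-/- St replicate 5), 0 to 2 in TNFR2-/- St vs TNFR2-/- NS (*Cks2* and *Ttk* without TNFR2-/- NS replicate 5, *Ttk* without TNFR2-/- St replicate 2, *Psrc1* without TNFR2-/- St replicate 5), 0 to 1 in TNFR2-/- St vs WT St (*Cks2* without TNFR2-/- NS replicate 5) and 0 in the others. With the replicate block within genotype it stayed 0 in the 3 comparisons that could be fitted. No called value of a named gene changed sign under any alternative run, 18 values met the criteria for a call only under an alternative and 74 no longer met them. Leaving out both libraries of TNFR2-/- culture 5 was also chosen after seeing the data.

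The members' median log2 fold change, with a spread between replicates of 0.188, ranged over the left-out libraries from −0.392 to −0.083 in TNFR2-/- NS vs WT NS, −0.189 to −0.086 in WT St vs WT NS, −0.361 to −0.023 in TNFR2-/- St vs TNFR2-/- NS, −0.483 to −0.183 in TNFR2-/- St vs WT St and −0.203 to 0.105 for the interaction. The genotype medians were −0.103 and −0.22 with the replicate number as a replicate block, and −0.123 and −0.238 with a weight for each library. Of the calls of named genes on other lists, 10 were lost under at least 1 alternative, and *Ccne1* was not among the genes run. The call of *Cdc25b* was lost under 19 of 27 alternatives, that of *Ncapg2* under 16 of 24 and that of *Lbr* under 10 of 24. The other 7 were each lost under 2 to 7. In TNFR2-/- NS vs WT NS *Ncapg2* and *Lbr* reached adjusted p values of 0.151 and 0.113, in TNFR2-/- St vs TNFR2-/- NS *Cdc25b*, *Mycn*, *E2f2*, *Cdca7* and *Ccnd1* reached 0.154, 0.0944, 0.0832, 0.0827 and 0.0633, and in TNFR2-/- St vs WT St *Cdk6* reached 0.069. In WT St vs WT NS *Cdkn1b* and *Ung* fell under 1.5-fold (log2 fold changes of −0.57 and 0.555). The cause was not tested. With 3 libraries a group, an exact permutation test of 1 gene cannot go below 0.1.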
